A study of Mus musculus with 4 samples.

Results

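The genes described here encode the receptors for glutamate and gamma-aminobutyric acid (GABA). They are the protein-coding genes of the GENCODE M21 mouse annotation whose symbols belong to the Gria, Grin, Grik, Grid, Grm, Gabr and Gabbr families, 47 of the 21938 protein-coding genes on chromosomes 1 to 19, X and Y. By family, 4 encode AMPA, 7 NMDA, 5 kainate, 2 delta and 8 metabotropic glutamate receptor subunits, and 19 encode GABA-A and 2 GABA-B receptor subunits. They were set against the regions in which acetylation of histone H3 at lysine 9 (H3K9ac), a mark of active promoters and enhancers, was called different by the authors between cells in 70 µM choline chloride (supplemented) and cells in 5 µM choline chloride (control), both for 48 h. The cells were HT22, an immortalised line of mouse hippocampal origin, and all values come from this 1 line in medium with serum.

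Glutamate opens the AMPA, NMDA and kainate channels, which carry excitatory transmission, and acts through the metabotropic Grm receptors on G proteins. GABA opens the chloride channels built from Gabr subunits and acts through the paired subunits Gabbr1 and Gabbr2 on G proteins. In the hippocampus these receptors sit in and around synapses of mature neurons. Proliferating HT22 cells form no mature synapses and are widely used to study glutamate toxicity that runs through cystine uptake and glutathione loss rather than through glutamate-gated channels.

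The series holds 4 libraries, 2 of H3K9ac ChIP DNA and 2 of input DNA, so no choline level has more than 1 ChIP library. The authors' deposited list has 45855 regions, of which 45495 are assigned to 70 µM and 360 to 5 µM. The title under which the list was deposited speaks of input against H3K9ac, whereas each region's name within it compares 5 with 70, and its headers speak of regions unique to condition 1 and to condition 2. It is read here as the choline comparison with 5 µM as condition 1, and every direction below rests on that reading. Regions that both levels shared are not in the list, so a gene without a region may carry H3K9ac at both levels alike, or at neither. The score of a region is the authors' own value in an unnamed column, where bdgdiff usually writes a log-scale likelihood ratio of the conditions, and it describes regions within the list only. Without replicates of a level no difference was tested, no p-value is given, and read depth is unknown. Intervals are exact (Clopper-Pearson for shares, Poisson for densities), 95%, and cover counting of genes or regions only. The number of regions per Mb ran from 0.174 on chromosome Y to 37.5 on chromosome 11, and 8 of the receptor genes lie on chromosome 11.

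Few receptor genes had a differential region at a start. A region within 1 kb of any annotated transcript start was found for 5 of 47 receptor genes (10.6%, interval 3.55 to 23.1), against 39.5% of all protein-coding genes (8665 of 21938). Those described here are the GABA-B subunit gene Gabbr1, the NMDA subunit genes Grin2c and Grin2d and the kainate subunit gene Grik2. All 10 of the start regions were assigned to 70 µM (5 of 47 genes, against 39.2% of all genes) and none to 5 µM (0 of 47, against 0.88% of all genes). The median number of annotated starts per gene was 4.0 for receptor genes and 3.0 for all protein-coding genes. The part of start number in these shares was not tested.

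**Figure D1:**
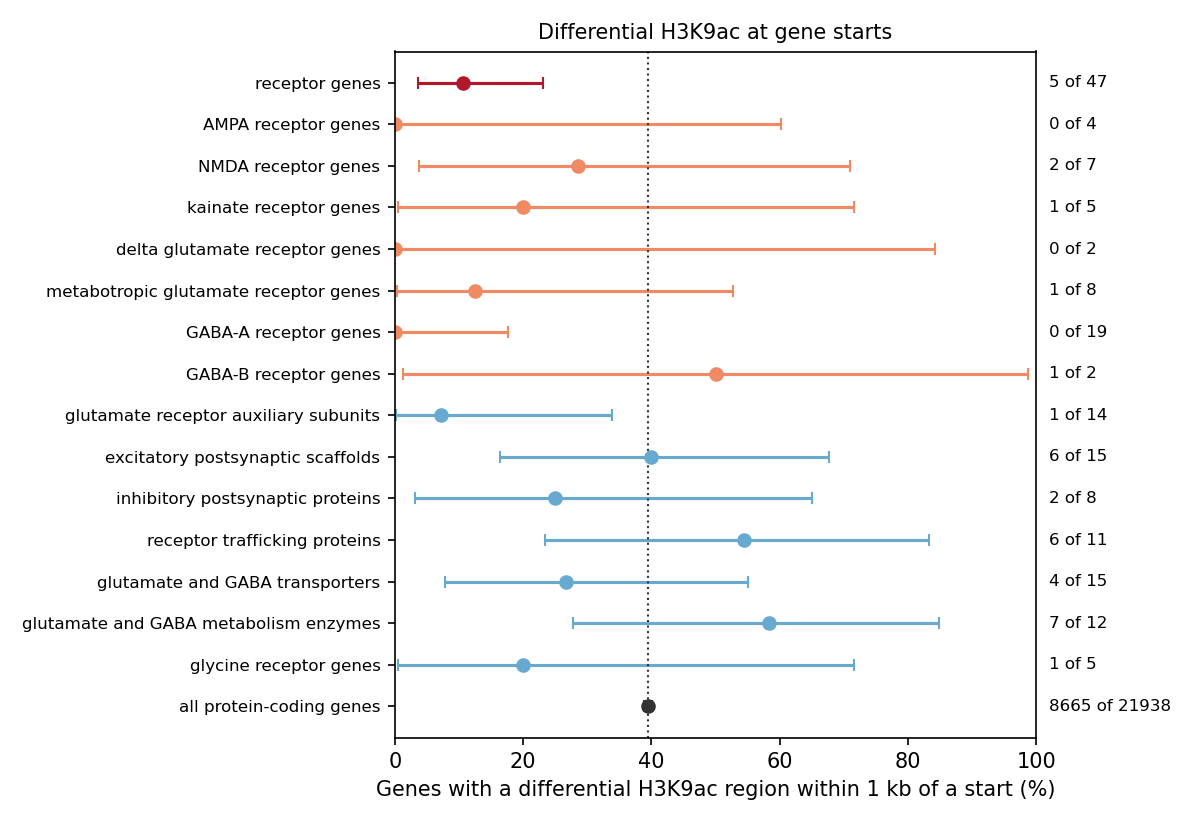
Share of genes with a differential H3K9ac region within 1 kb of a start (percent, x axis) for the receptor genes, their classes (orange), lists of related genes (blue) and all protein-coding genes (black, dotted line at 39.5%). Points are shares, bars exact 95% binomial intervals, counts stand at right; the receptor genes lie at 10.6% and GABA-A genes at 0 of 19.

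Gabbr1 carried the most start regions of any receptor gene, 4 at 70 µM. It also had the most annotated starts, 11, against a median of 4.0 for receptor genes. The part of start number in its count was not tested. This gene (ENSMUSG00000024462.17, mm10, chromosome 17, 37045966 to 37075067, plus strand) encodes the subunit that binds GABA, and its main isoforms, 1a and 1b, begin at separate promoters. A region at 37045457 to 37045584 lay 382 bp upstream of the first start and scored 4.48 in the authors' deposited table. The widest, at 37046085 to 37046481, covered 397 bp of untranslated exon sequence and the intron after it, was 73.0% G and C with 35 CpG sites, and had a score of 4.44. A region at 37046797 to 37046974 (score 6.53) began 229 bp downstream of the start of transcript Gabbr1-202. The last, at 37050579 to 37050763 (score 6.60), overlapped the internal start of Gabbr1-203. Regions thus lay at both the outer and the inner starts of the gene. By score all 4 stood in the lower part of the authors' deposited table, between the 23.4 and the 49.7 percentile. The sequences upstream of the outermost start and just before the inner start are shown because they are the promoter bases under these regions. In the first, capitals mark CpG sites. In the second, capitals mark the letters of a cyclic AMP response element (CRE).
Gabbr1 outer, chr17:37045457-37045584, plus strand: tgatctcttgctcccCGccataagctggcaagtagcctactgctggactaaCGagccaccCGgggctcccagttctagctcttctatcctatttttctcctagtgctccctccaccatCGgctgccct
Gabbr1 inner, chr17:37050579-37050630, plus strand: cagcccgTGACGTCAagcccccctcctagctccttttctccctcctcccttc

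The CRE letters TGACGTCA, searched on both strands, were in 1 of the 10 start regions of receptor genes, this one, and in 0.353% of all 13316 regions at protein-coding starts. Such a match is a description of the letters and not of a bound factor. Inside the same gene, the region at 37067908 to 37068154 overlapped a coding exon and scored 28.16 in the authors' deposited table, the highest of all 68 receptor gene regions. Gabbr2, whose product couples the receptor to G proteins, had no start region. Its 4 regions lay inside the span, the first 94.6 kb from the 5′-most start, with scores of 22.24, 19.01, 6.62 and 4.50 in the authors' deposited table. The score of 19.01 is the commonest value of the list, carried by 2552 regions.

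Among NMDA receptor genes, 2 of 7 had a region at a start (28.6%, interval 3.67 to 71.0, against 39.5% of all protein-coding genes). Grin2c (ENSMUSG00000020734.13, chromosome 11, 115249169 to 115267243, minus strand) encodes a glutamate-binding subunit best known from cerebellar granule cells. Its upstream region, chr11:115267568-115267704, ended 325 bp before the outer start and scored 20.87 in the authors' deposited table, above 93.3% of the list or equal to it. Its other start region, at 115265532 to 115265713, lay 103 bp before the start of Grin2c-201 and had a score of 3.69, near the low end of the authors' deposited table. Grin2d (ENSMUSG00000002771.12, chromosome 7, 45831883 to 45878378, minus strand) encodes a subunit of embryonic brain and interneurons. Its region at 45866823 to 45866990 began 139 bp inside transcript Grin2d-201 in untranslated sequence (score 4.96). That at 45869487 to 45869640 lay 789 bp inside Grin2d-203, in an intron (score 6.85). The highest score at Grin2d, 21.73, was that of a region at no start, in an intron at 45864577 to 45864726. No start region of these genes lay within 1 kb of the start of another protein-coding gene. The sequences of the higher-scoring start region of each gene follow on the strand of the gene, with CpG sites in capitals.
Grin2c upstream, chr11:115267568-115267704, minus strand: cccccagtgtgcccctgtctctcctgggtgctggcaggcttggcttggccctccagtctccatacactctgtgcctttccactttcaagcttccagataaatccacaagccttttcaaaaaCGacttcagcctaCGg
Grin2d intron, chr7:45869487-45869640, minus strand: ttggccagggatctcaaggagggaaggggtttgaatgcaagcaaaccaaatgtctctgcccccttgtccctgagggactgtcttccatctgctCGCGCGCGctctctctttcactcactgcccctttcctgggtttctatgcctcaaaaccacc

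The Grin2c sequence has 2 CpG sites in 137 bases and the Grin2d sequence has 4 in 154, all 4 in 1 run. The obligatory NMDA subunit gene Grin1 had no start region and 1 region in an intron, 11.2 kb from its 5′-most start (score 6.25 in the authors' deposited table). Grin2a and Grin2b, the main partners of Grin1 in the hippocampus, each had 1 intronic region, 136 and 358 kb from the start, with scores of 14.25 and 19.01 in the authors' deposited table. The score at Grin2b is the commonest value of the list. Grin3a, a glycine-binding subunit gene, had 2 regions inside its span, one of them in a coding exon (score 18.69), and Grin3b had none.

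Among kainate receptor genes, 1 of 5 had a start region. Grik2 (ENSMUSG00000056073.16, chromosome 10, 49094833 to 49788766, minus strand) encodes the main kainate receptor subunit of hippocampal mossy fibre synapses. Its region ended 128 bp before the start of Grik2-204, 5.16 kb inside the outermost start, with 4.72 as its score in the authors' deposited table. The region overlapped an untranslated exon of the gene. It is printed on the gene's strand with CpG sites in capitals, as bases upstream of the inner start of Grik2-204. Bases annotated as untranslated are left out. The word promoter in the label stands only for a position before the start of Grik2-204, inside the gene. Promoter activity of the printed bases was not tested.
Grik2 promoter, chr10:49783546-49783685, minus strand: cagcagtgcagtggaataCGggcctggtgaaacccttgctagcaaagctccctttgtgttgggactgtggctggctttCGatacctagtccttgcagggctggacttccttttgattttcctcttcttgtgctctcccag

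**Figure D2:**
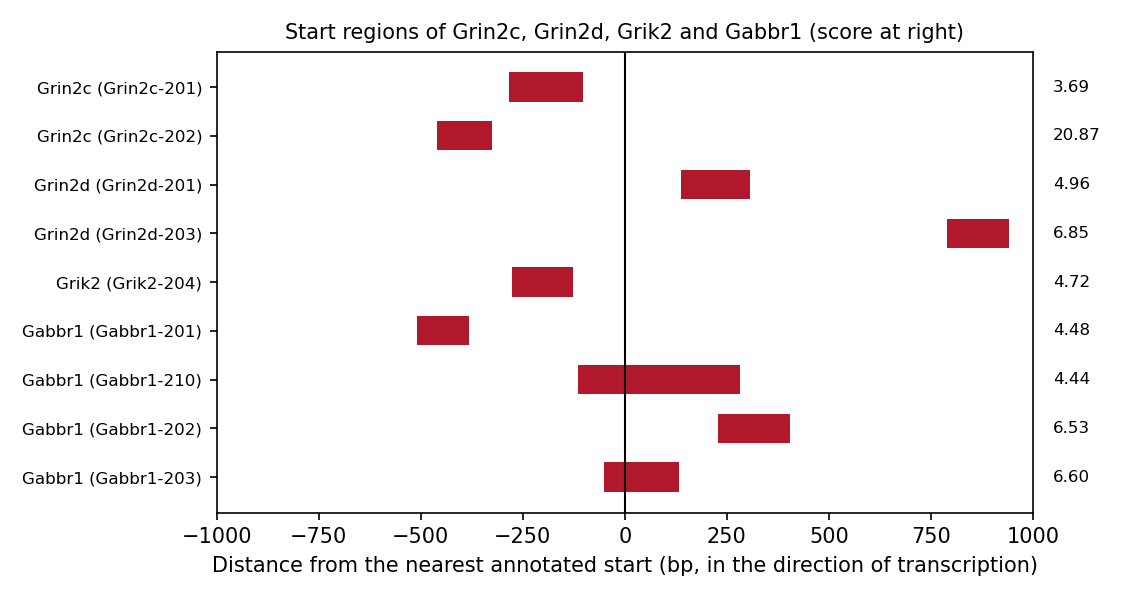
Position of the start regions of Grin2c, Grin2d, Grik2 and Gabbr1 relative to the nearest annotated start (bp, x axis, positive in the direction of transcription; row labels give gene and transcript, numbers at right the score). Of the bars, 2 at Gabbr1 cross a start, and one of Grin2d lies 789 bp inside the transcript.

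By position, 2 of the 10 start regions were upstream of the gene, 4 overlapped untranslated exon sequence, 1 a coding exon, 1 an exon of a transcript without coding sequence, and 2 lay in introns. With only the 5′-most start of each gene, 2 receptor genes kept a region, Gabbr1 and Grin2c (4.26%, against 32.5% of all protein-coding genes), so the regions of Grin2d and Grik2 lay at inner starts. With regions under the median score of the list left out, 3 receptor genes kept one (6.38%, against 14.6% of all protein-coding genes). No interval was computed for the shares under these settings, so their gaps to all genes are not set against counting error.

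In 3 of the 7 classes no gene had a region at a start. None of 4 AMPA receptor genes (Gria1 to Gria4) and neither delta receptor gene had one. Their intervals, 0 to 60.2% and 0 to 84.2%, hold the 39.5% of all protein-coding genes. Of the 19 GABA-A genes, which encode the alpha, beta, gamma, delta, epsilon, pi, theta and rho subunits of the chloride channel, none had one (0%, interval 0 to 17.6). Among kainate genes Grik1, Grik3, Grik4 and Grik5 had none, and of 8 metabotropic glutamate receptor genes 7 had none. The intervals of the kainate (0.505 to 71.6%) and metabotropic glutamate receptor genes (0.316 to 52.7%) also hold the share of all genes. By transmitter, 4 of 26 glutamate receptor genes (15.4%, interval 4.36 to 34.9) and 1 of 21 GABA receptor genes (4.76%, interval 0.12 to 23.8) had a start region. By mode of action, 2 of 10 metabotropic receptor genes (Grm and Gabbr) and 3 of 37 ion channel genes had one. Within each of these pairs the intervals overlap and the differences were not tested.

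The low share was found at starts rich in CpG sites and at starts of middling CpG content. CpG sites per 100 bp were counted 500 bp either side of the 5′-most start, and all protein-coding genes were divided at 1.8 and 5.99 into tertiles. In the highest tertile, 2 of 14 receptor genes had a start region (14.3%, interval 1.78 to 42.8), against 63.2% of 7138 protein-coding genes. In the middle tertile the counts were 2 of 23 (8.70%, interval 1.07 to 28.0) against 43.4% of 7427. In the lowest tertile they were 1 of 10 (10.0%, interval 0.253 to 44.5) against 12.7% of 7373. The share of all genes thus climbed with CpG content, and that of receptor genes stayed between 8.70 and 14.3%. The most CpG-rich receptor genes, Grid1 and Gabbr2 with 13.1 sites per 100 bp, Grik3 with 12.5 and Grik4 with 10.6, had no start region. For a gene such as Grin2d, with 0.4 sites per 100 bp, the 5′-most annotated start need not be the one in main use.

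**Figure D3:**
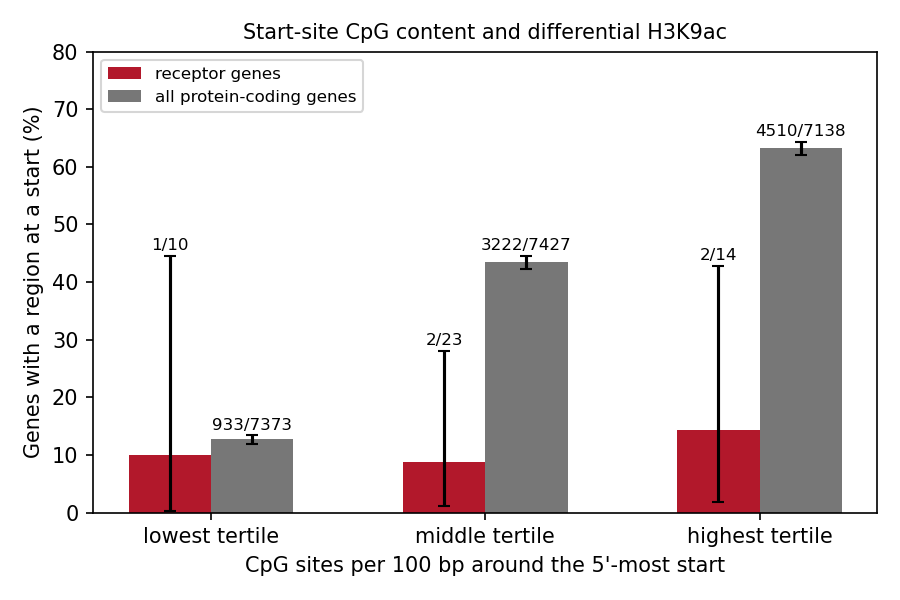
Share of genes with a region at a start (percent, y axis) in tertiles of CpG content at the 5′-most start, for receptor genes (red) and all protein-coding genes (grey). Bars are shares, whiskers exact 95% binomial intervals and labels counts; the grey bars climb to 63.2% and the red bars stay between 8.70 and 14.3%.

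The 5′-most start of most receptor genes lay far from any differential region, although many of these genes held a region inside the span. From the 5′-most start to the nearest region of either level the median was 79.7 kb for receptor genes and 7.52 kb for all protein-coding genes. Among genes without a start region it was 87.2 kb for the 42 receptor genes and 30.6 kb for all such genes. A distance over 50 kb was found for 29 of 47 receptor genes (61.7%), against 23.5% of all genes. Among the longest were 593 kb at Gabra5, 581 kb at Gria3 and 532 kb at Gabrg3. The shortest among genes without a start region was 2.29 kb, at Grik5.

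Inside their spans, and at no start of their own, 26 of 47 receptor genes had a region (55.3%, interval 40.1 to 69.8), against 36.6% of all protein-coding genes. These were 58 regions, all at 70 µM, of which 54 lay in introns, 3 overlapped coding exons (Gabbr1, Gria2 and Grin3a) and 1 an untranslated exon (Gabrb1). One of them, in Grin2d at 45873896 to 45874046, also lay within 1 kb of a start of Kdelr1. Counting starts and spans together, 27 of 47 receptor genes had a region (57.4%, against 54.7% of all genes), a share near that of all genes.

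Receptor genes are long, with a median span of 138 kb against 17.4 kb for all protein-coding genes, so the regions were also set against length. Receptor genes held 0.470 regions per 100 kb (interval 0.357 to 0.608) and all protein-coding genes 2.07 (interval 2.04 to 2.10), with a region counted once for each gene it lay in. The density was lower for receptor genes in each bin of span. In genes over 300 kb it was 0.335 (interval 0.230 to 0.470) for 17 receptor genes and 0.861 (interval 0.829 to 0.893) for 567 genes in all. From 100 to 300 kb it was 0.706 (interval 0.365 to 1.23) for 9 receptor genes and 1.8 (interval 1.75 to 1.85) for all. From 30 to 100 kb it was 1.63 (interval 0.780 to 2.99) for 10 receptor genes and 2.81 (interval 2.74 to 2.87) for all, and under 30 kb 1.85 (interval 0.381 to 5.40) for 11 receptor genes and 4.42 (interval 4.30 to 4.54) for all. In these last 2 bins the intervals overlap. The share of genes over 300 kb with at least 1 region was 82.4% for receptor genes (14 of 17) and 81.7% for all.

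**Figure D4:**
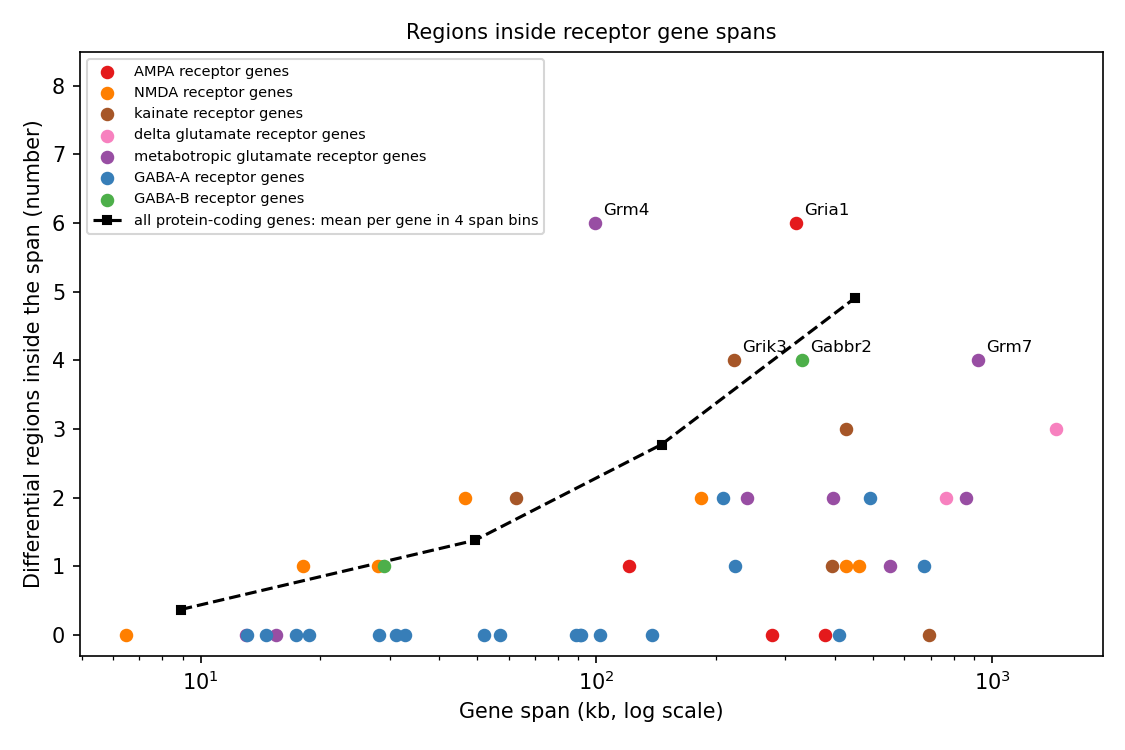
Number of differential regions inside the span and at no start (y axis) against span (kb, log x axis) for each of the 47 receptor genes, coloured by class. The dashed line joins the mean per gene of all protein-coding genes in 4 bins of span, drawn at the median span of each bin; Gria1 and Grm4 have 6 regions each, and most GABA-A genes lie at 0.

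Grm4 and Gria1 held the most regions inside the span, 6 each. Grm4, which encodes an inhibitory autoreceptor for glutamate, spans 99.0 kb on chromosome 17 (27422387 to 27521403), and its density was 6.56 per 100 kb (interval 2.41 to 14.3). Of its regions, 4 lay between 27476077 and 27482518, 39.0 to 45.2 kb inside the gene, and the region at 27482321 to 27482518 scored 26.73 in the authors' deposited table, at the 99.5 percentile. The other 3 of that stretch had scores of 5.70, 4.01 and 3.48 there. Gria1, which encodes an AMPA subunit needed for hippocampal long-term potentiation, spans 319 kb on chromosome 11 and had a density of 1.91 (interval 0.701 to 4.16). Its 6 regions lay in introns from 19.5 to 286 kb inside the gene, with scores from 5.00 to 21.98 in the authors' deposited table.

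Among the other AMPA genes, Gria2, whose edited subunit sets calcium permeability, had 1 region, in a coding exon at 80721932 to 80722117 on chromosome 3 (score 19.20), and Gria3 and Gria4 had none. Kainate genes had regions in Grik3 (4), Grik4 (3), Grik5 (2) and Grik1 (1), and Grik2 had none beyond its start region although it spans 694 kb. The delta gene Grid1, which spans 763 kb, had 2 regions. Of the metabotropic glutamate receptor genes, Grm7 had 4 regions and Grm3 and Grm8 had 2 each. NMDA genes had 8 regions in 6 of 7 genes, with 2 each in Grin2d and Grin3a.

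Of 19 GABA-A genes, 4 had a region inside the span (21.1%, interval 6.05 to 45.6), against 36.6% of all protein-coding genes, a value the interval holds. Of 26 glutamate receptor genes, 20 had one (76.9%, interval 56.4 to 91.0). The median spans were 88.6 kb for GABA-A and 298 kb for glutamate receptor genes. By length, GABA-A genes had 6 regions, 0.219 per 100 kb (interval 0.0805 to 0.477). Glutamate receptor genes had 47 regions, 0.508 per 100 kb (interval 0.373 to 0.675). The density intervals overlap, and delta receptor genes, with 0.227 per 100 kb, were close to GABA-A genes. The GABA-A genes with regions were Gabrb1 and Gabrb2 (2 each), which encode beta subunits, and Gabra3 and Gabrg3 (1 each). No region at a start or inside the span was found for 20 of 47 receptor genes. The share with a region, 57.4%, was near the 54.7% of all protein-coding genes. Of the 20, 15 encode GABA-A subunits, among them Gabra5 of hippocampal extrasynaptic receptors, Gabrd and the 3 rho genes. The other 5 were Gria3, Gria4, Grin3b, Grm2 and Grm6.

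Many GABA-A genes lie in clusters, and regions were also counted over 5 whole clusters, the spaces between genes included. In 3 of the 5 the interval of the density lay wholly below the density of the cluster's own chromosome, and in the other 2 it held that value. The chromosome 5 cluster (Gabrg1, Gabra2, Gabra4, Gabrb1; 70751047 to 72149037) held 6 regions, 4.29 per Mb (interval 1.58 to 9.34), against 21.6 per Mb over the whole chromosome. In the chromosome X cluster (Gabre, Gabra3, Gabrq) 1 region was found, 1.70 per Mb (interval 0.0432 to 9.50), against 4.68 over the whole chromosome. The pair Gabrr2 and Gabrr1 on chromosome 4 spans 0.101 Mb and held none, which allows up to 36.7 per Mb, against 23.4. Genes of a cluster share their neighbourhood and are not independent of each other.

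In score, the start regions of receptor genes were close to those of other genes, with a median of 5.74 (10 regions) against 5.0 for all regions at protein-coding starts in the authors' deposited table. The regions inside receptor genes had a median of 14.28 (range 3.48 to 28.16, 58 regions), against 8.74 for all 18941 regions inside protein-coding spans and at no start. Part of that gap is 1 exact score. The score of 19.01, carried by 2552 regions of the list, was that of 10 of the 58 regions inside receptor genes (17.2%), against 6.42% of all regions inside spans, and without it the medians were 9.80 and 7.98. By class the median of the regions inside the span ran from 7.57 for metabotropic glutamate receptor genes (17 regions) to 19.01 for AMPA (7) and GABA-B genes (5). Sequence that the RefSeq genome marks as repeats filled over 50% of the bases in 14 of the 58 regions (24.1%), against 13.2% of all regions inside spans. The part of repeats in the scores was not tested.

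**Figure D5:**
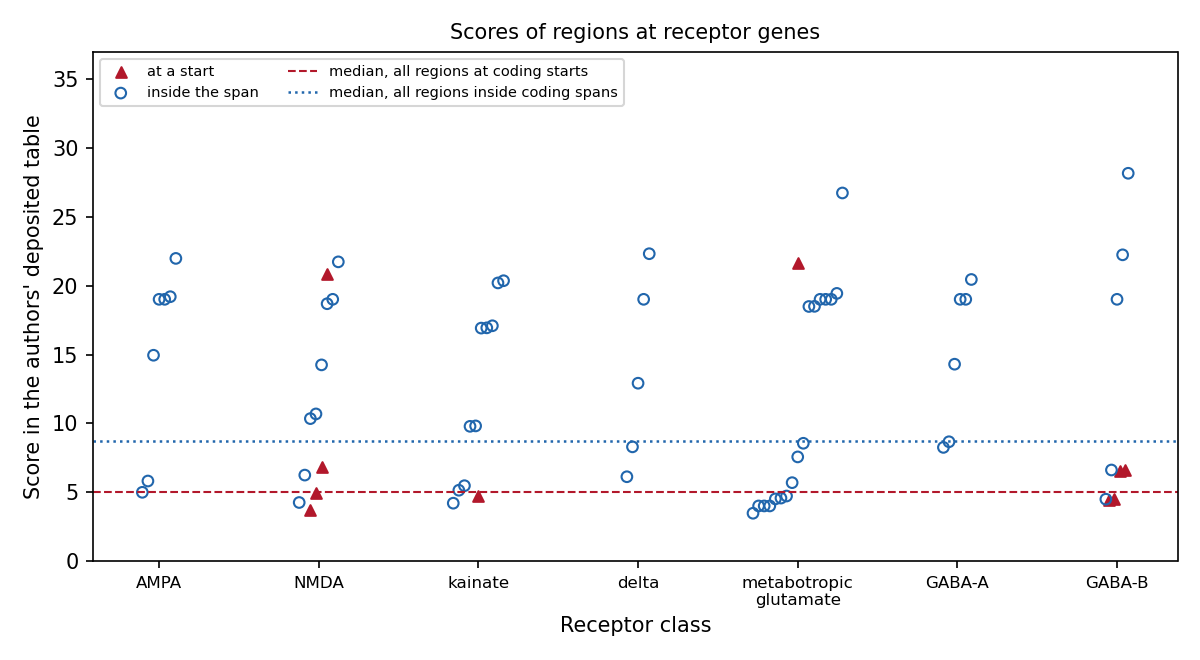
Score in the authors' deposited table (y axis) of each region at a start (red triangles) or inside the span (blue circles) of receptor genes, by class. Lines give the medians of all regions at protein-coding starts (5.0) and inside protein-coding spans (8.74); the highest point, 28.16, is in Gabbr1, and AMPA, delta and GABA-A genes have no triangle.

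RefSeq promoters (GRCm38.p6, 250 bases before to 50 after a start) were at hand for 32 of the 47 receptor genes, 39 promoters in all. They were searched on both strands for the left part of the RE1 element, TTCAGCACC. RE1 is the site of the repressor REST, which holds many neuronal genes down in cells that are not neurons. It was found in 1 of the 39 promoters (2.56%), that of Grm2, and in 0.371% of all 32851 promoters. It was in none of the 68 regions at receptor genes, and in 0.201% of all regions. The shorter right part, GGACAG, was in 13 of the 39 promoters (33.3%) and 22.2% of all promoters, among them those of Gria2, Grin1, Grin2d and Gabrb2. In regions the order was reversed. GGACAG was in 0 of 10 start regions of receptor genes, against 18.8% of all regions at protein-coding starts. Inside spans it was in 6 of 58 regions of receptor genes (10.3%), against 16.9% of all. The Grm2 stretch is shown because both parts stand in it, the left part in capitals, 242 bases upstream of the RefSeq start and on the strand of the gene.
Grm2 promoter, within chr9:106656060-106656359, minus strand: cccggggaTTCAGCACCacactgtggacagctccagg

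The right part begins 7 bases after the left part. Both are matches of letters, and whether they form an RE1 site at this spacing was not tested. Grm2 encodes an inhibitory presynaptic receptor and had no region at its starts or inside its span, the nearest being 25.2 kb away. Of the other motifs searched, AP-1 (TGANTCA) was in 4 of 58 regions inside receptor genes (6.90%, against 5.49% of all regions inside spans) and in none of the 10 start regions, and the E-box CAGCTG in 6 of 58 (10.3%, against 11.3%). The NRF1 motif was in no region of a receptor gene and in 1 of the 39 promoters, that of Gabrb1.

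Genes around the receptors were described by the same count. Auxiliary subunits of glutamate receptors were low, with 1 of 14 (7.14%, interval 0.181 to 33.9, against 39.5% of all protein-coding genes): Cacng7 (score 7.94 in the authors' deposited table), with none at Cacng2 and Cacng3. Of 5 glycine receptor genes, 1 had a start region, Glrb (score 19.01, the commonest value), and Glra1 and Glra2 had none. Inhibitory postsynaptic proteins had 2 of 8, Nlgn2, an adhesion protein of inhibitory synapses (7.24), and Gphn, the gephyrin scaffold gene (4.69), with Insyn1 without a region there. The intervals of the glycine receptor genes (0.505 to 71.6%) and the inhibitory postsynaptic proteins (3.19 to 65.1%) hold the share of all genes.

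Excitatory scaffold genes were at 6 of 15 (40.0%, interval 16.3 to 67.7), near the share of all genes. In the authors' deposited table they were led by Shank3 (9.78), Dlg2 (8.74), Dlg4, which encodes a major scaffold of the postsynaptic density (6.23), and Dlg1 (5.24), and Dlg3 and Dlgap1 had none. Trafficking proteins had 6 of 11 (54.5%, interval 23.4 to 83.3), led there by the AMPA receptor anchor Grip2 (18.99), Gabarap (8.41), Grasp (6.83) and Pick1 (6.12), with Gabarapl1 and Gabarapl2 without one. Several of these proteins serve outside synapses too, such as Gabarap in autophagy.

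Enzymes of glutamate and GABA metabolism had 7 of 12 (58.3%, interval 27.7 to 84.8, against 39.5% of all protein-coding genes). Strongest in the authors' deposited table were Gclm (20.54), the modifier subunit of the enzyme that makes the glutathione precursor from glutamate and cysteine, the glutamine synthetase gene Glul (19.01), the glutaminase gene Gls2 (10.08) and the aspartate aminotransferase gene Got1 (6.70). The score of Glul is the commonest value of the list. Abat and Aldh5a1, which break GABA down, had none. Nor did the genes in this list whose enzymes make GABA. The genes with a start region all serve glutamate, glutamine or glutathione metabolism. Transporters had 4 of 15 (26.7%, interval 7.79 to 55.1), and both intervals hold the share of all genes. The transporters with one were the neutral amino acid exchanger genes Slc1a5 (19.84) and Slc1a4 (4.14), the cystine-glutamate exchanger gene Slc7a11 (10.50) and the glial glutamate transporter gene Slc1a3 (6.16) in the authors' deposited table. The strongest region of Slc1a4 was a 5 µM region, at 20331619 to 20331742 on chromosome 11, beside 1 at 70 µM, and it is the only 5 µM start region in these 7 lists. Slc17a6 and Slc17a7, which encode vesicular glutamate transporters, had none.

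As a check of the label, start regions were found at 2 of 10 genes of mature neurons (Rbfox3 and Syn1, but not Map2, Tubb3 or Snap25), 3 of 6 astrocyte, 2 of 6 oligodendrocyte and 7 of 8 fibroblast and mesenchyme genes (all but Twist1), against 39.5% of all protein-coding genes. The intervals of the neuron (2.52 to 55.6%), astrocyte (11.8 to 88.2%) and oligodendrocyte genes (4.33 to 77.7%) hold the share of all genes, and that of the fibroblast and mesenchyme genes (47.3 to 99.7%) lies above it. Since regions shared by the 2 levels are not listed, these counts say where H3K9ac differed and do not show which cell type genes were active.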

How the data were processed

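The HT22 cultures (70 µM or 5 µM choline, 48 h) gave 2 H3K9ac ChIP and 2 input libraries; the labels do not give the choline level of a library. Reads were handled with CASAVA 1.8 and Bowtie 1.0.0 and analysed with MACS2, in mm10, per the submitters' processing notes, which name no MACS2 version. Per the series' design text, peaks were called against input, and differences between the levels with the bdgdiff function of MACS2. The score of a region is the authors' deposited value in a column without a name; it was used to describe and rank regions within the list. The sources used here do not give the scaling between libraries, depth is unknown, and a deeper or cleaner library would yield more regions for its level.

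Regions were set against GENCODE M21 and the RefSeq GRCm38.p6 sequence (the build of mm10) with Python 3.11.15, numpy 2.4.6, pandas 2.3.3 and scipy 1.17.1. A region was at a start when 1 bp or more of it fell within 1000 bp of any annotated start of the gene, and inside a span when it overlapped the gene and none of its start windows. The overlap code was tested on simulated regions. The receptor genes, lists and tests were chosen with earlier results of these data known; of the listed names, Insyn2a was not found in the annotation. Named were all receptor genes with a start region, those with most regions inside the span, the highest scores, and in each list up to 4 genes with the highest start-site score and up to 2 without a region in alphabetical order. Genes that this rule selects but that are left out of the text are not reported here. Some further receptor genes are named with their values after those were seen. No comparison has replicates, so none was tested.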

Additional observations from a re-analysis of the deposited data

How the results depend on the processing

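The count of 5 receptor genes with a start region was 4 with windows of 500 bp (32.5% of all protein-coding genes there) and 7 with 2500 bp (46.5%), where Grik5 and Grm4 joined. It was 3 when regions under the median score were left out (14.6% of all genes) and 2 with only the 5′-most start. It stayed 5 by the midpoint, with 70 µM regions alone, without the 2 commonest scores and without regions within 1 kb of a start of another gene, an alternative added after the data were seen. Class counts are small and moved with these settings. With 500 bp, metabotropic glutamate genes had 0. With 2500 bp, kainate and metabotropic glutamate genes had 2 each. Without the regions under the median score, kainate and GABA-B genes had 0. With the 5′-most start, NMDA genes had 1, and kainate and metabotropic glutamate genes 0. AMPA, delta and GABA-A genes had 0 under every setting run. Inside the spans, the density of 0.470 per 100 kb was 0.324 without the regions under the median score (1.21 for all genes), and the other settings stayed inside its counting interval. In all, 65 of 76 recomputed values stayed within 1.5 times, or within the counting interval for density, and 11 moved; fewer regions or narrower windows were counted by construction. Windows of 500 bp and the 5′-most start were applied to starts only.

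No paired analysis was possible because no value in the list belongs to a single library. Unknown depth and a list without shared regions limit all counts.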
